A study of Mus musculus with 6 samples.

Results

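The secreted antagonists of bone morphogenetic proteins (BMPs) and activins were followed in mouse chondrocytes of the knee at 2 ages. They were chosen by name as 9 genes, *Nog*, *Grem1*, *Chrd*, *Chrdl1*, *Chrdl2*, *Fst*, *Fstl1*, *Fstl3* and *Twsg1*, out of 22032 genes in the deposited table, and all 9 were found under these symbols. RNA sequencing (RNA-seq) had been done on 3 samples from embryos at day E16.5 and 3 from adults at 2 months. The labels write the embryonic age in weeks, and the embryonic day of the study's methods is used here. Both groups were sorted the same way, as BMPR1B+ cells that lacked alkaline phosphatase (ALP-) and the blood, endothelial and erythroid surface proteins CD45, CD31 and Ter119. The adults were male B6 mice, and neither group carried a transgene or treatment that the labels name. The strain and sex of the embryos and the number of animals in each sample are not given in the sources used here. BMPR1B is itself a BMP receptor, so every sample was selected on a part of the pathway that these antagonists act on.

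BMPs, growth and differentiation factors (GDFs) and activins are secreted dimers that bring type I and type II receptors together on a cell, and the receptors then phosphorylate Smad proteins that enter the nucleus. The antagonists act before that step, because they hold the ligand outside the cell and keep it from its receptors. Noggin, gremlin and chordin hold BMPs, whereas follistatin and FSTL3 hold activins most tightly. In the developing skeleton, BMPs drive cartilage growth, and joints fail to form in mice that lack noggin.

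Levels are given in TPM, transcript abundances that are corrected for transcript length and scaled to add up to 1000000 in each sample, so a value is a share of the sample's RNA and carries no read depth. Changes are adult minus embryonic on the log2(TPM + 1) scale, which understates the change of low genes. They were tested with limma over 13125 genes, those whose mean over the 6 samples reached 1 TPM, and a gene counted as called at a Benjamini-Hochberg adjusted p under 0.05. Of these genes 45.3% were called, 21.4% lower and 23.9% higher in the adult samples, so a call by itself was common. The median change of all genes tested was 0.16. The 20 highest genes took 10.7% to 11.1% of the TPM in each embryonic sample and 14.6% to 17.7% in each adult sample. Between 7314 and 8294 genes were at 0 in a sample. The chondrocyte genes *Col2a1*, *Acan* and *Sox9* were present in every sample, but of 8 chondrocyte markers 5 were lower in the adult samples, *Col2a1* among them, 1 (*Sox9*) was higher and 2 were not called. The summed level of the 8 was 21399 to 23154 TPM before birth and 7642 to 10470 TPM in the adult. The tendon and fibroblast marker list and the superficial zone list differed widely between the stages, and their values are given beside *Fstl1*.

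Of the 9 antagonists 6 were called, where 45.3% of all genes tested were called. In detail, 4 were lower in the adult cells (*Nog*, *Chrd*, *Chrdl1* and *Fstl1*), 2 were higher (*Chrdl2* and *Twsg1*), and 3 were not called (*Grem1*, *Fst* and *Fstl3*). All 9 passed the filter on low values, but *Chrdl1* did so only through the embryonic samples, since its adult mean was 0.414 TPM, and a gene that passes in this way had to differ. The stages did not overlap for the 6 genes that were called, where 56.5% of all genes tested did not overlap. The median change of the antagonists was -0.77. None of the 9 was listed at 0 in any sample.

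**Figure D1:**
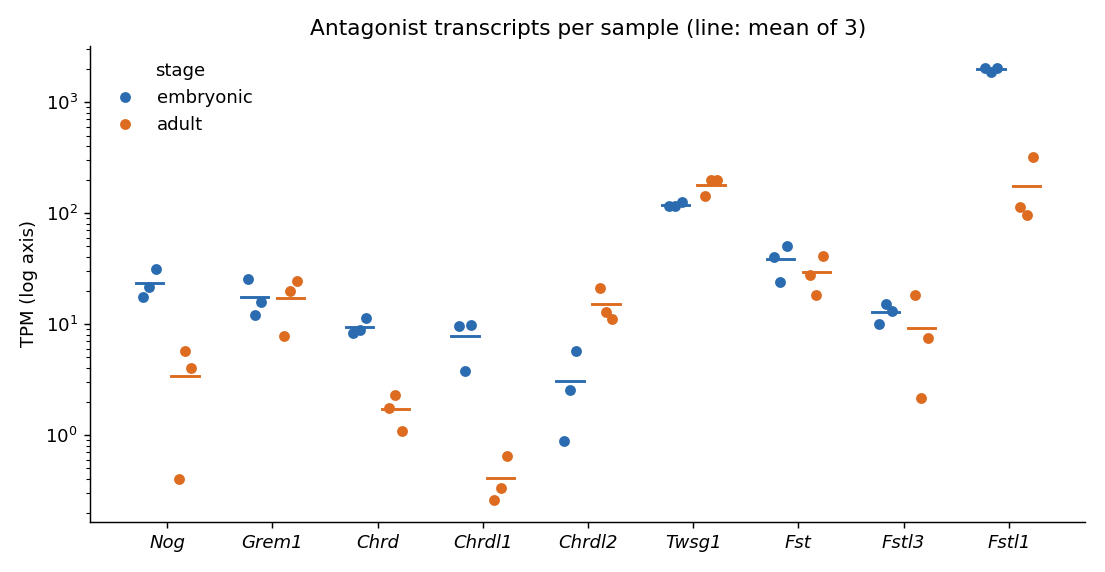
TPM of the 9 antagonists in each of the 3 embryonic and 3 adult samples, on a log axis, with 1 point per sample and a bar at the mean of each stage. *Fstl1* sits between 1854 and 2049 in the embryonic and between 96.6 and 321 in the adult samples, whereas *Grem1*, *Fst* and *Fstl3* overlap between the stages.

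**Figure D2:**
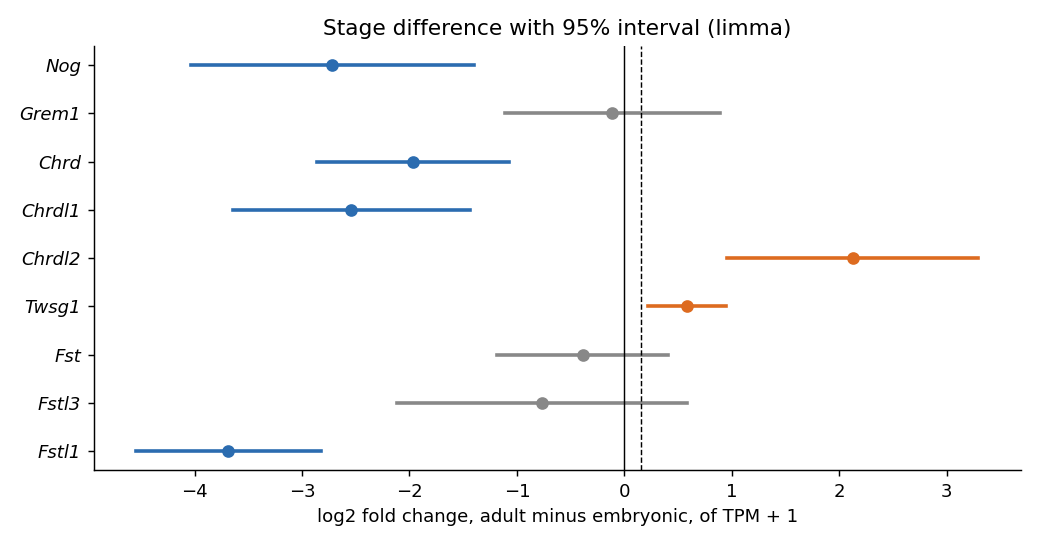
Change of each antagonist, adult minus embryonic on the log2(TPM + 1) scale, with its 95% confidence interval from limma, with called genes in colour, genes not called in grey and the median of all genes (0.16) as a dashed line. *Fstl1* lies farthest to the left at -3.69 and *Chrdl2* farthest to the right at 2.12.

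Promoter sequence was at hand for 5 of the 9 genes (*Chrd*, *Fstl1*, *Fstl3*, *Grem1* and *Twsg1*), as windows of 300 bases from 250 before to 50 after the RefSeq start on GRCm38.p6. The bases before the first annotated exon base are shown for 1 gene that was lower with little spread (*Chrd*), the gene with the largest log2 change (*Fstl1*) and 1 that was higher (*Twsg1*), each read 5′ to 3′ on the strand of its gene. Capitals mark the GC box GGGCGG on either strand, the letters bound by Sp1-type factors. The regions are chr16:20732877-20733126 (plus strand), chr16:37776805-37776872 (plus strand) and chr17:65951227-65951437 (minus strand).
Chrd: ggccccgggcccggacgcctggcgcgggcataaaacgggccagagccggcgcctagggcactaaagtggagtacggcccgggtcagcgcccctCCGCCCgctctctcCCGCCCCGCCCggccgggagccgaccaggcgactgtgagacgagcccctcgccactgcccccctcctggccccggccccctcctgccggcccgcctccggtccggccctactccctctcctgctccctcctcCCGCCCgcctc
Fstl1: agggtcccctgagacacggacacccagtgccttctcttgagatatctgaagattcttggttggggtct
Twsg1: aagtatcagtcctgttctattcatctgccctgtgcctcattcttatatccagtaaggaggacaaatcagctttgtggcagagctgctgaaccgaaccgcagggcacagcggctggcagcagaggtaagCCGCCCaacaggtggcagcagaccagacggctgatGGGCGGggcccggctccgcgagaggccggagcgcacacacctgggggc

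The *Chrd* stretch was 78% G and C, that of *Twsg1* 61.1% and the short one of *Fstl1* 52.9%. Within the whole windows the GC box occurred 4 times for *Chrd*, 4 for *Fstl3*, 3 for *Grem1*, 2 for *Fstl1* and 2 for *Twsg1*, where 35.7% of 32851 windows of the same length held at least 1. The boxes could overlap one another, as in the *Chrd* run CCGCCCCGCCC. All 5 windows held more CG dinucleotides (21 to 34) than the median window (7). The palindrome GGCGCC, known as a BMP-Smad element, was in the windows of *Chrd* and *Grem1* and in 11.9% of all windows. The Smad-binding letters CAGAC were in 4 of the 5 windows, all but that of *Fstl1*, and in 49.6% of all windows, and TATAAA was in that of *Fstl3* and in 13.6% of all windows, both strands counted. *Chrd*, which fell, and *Grem1*, which was not called, thus held the same 3 motifs, and these letters alone say nothing of what binds there.

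Of noggin and gremlin 1, both of which bind BMPs directly, only noggin was called. *Nog* (GRCm38 chr11:89300638-89302332, minus strand) was at 17.5, 21.8 and 31.2 TPM in embryonic replicates 1 to 3 and at 0.403, 5.74 and 4.01 TPM in adult replicates 1 to 3. Every adult sample was below every embryonic sample, and adult replicate 1 was far below the other two. The mean fell from 23.5 ± 7.00 to 3.39 ± 2.73 TPM (SD, n = 3 each), 6.93-fold, with a log2 change of -2.72 (SE 0.580, 95% interval -4.04 to -1.40, limma adjusted p = 0.00532). The change lay between -3.17 and -2.04 when each sample was left out in turn, and *Nog* was called each time, but with no filter on low genes its limma adjusted p was 0.0582. Without adult replicate 2 the ratio of means was 10.6-fold, and without adult replicate 1 it was 4.81-fold.

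*Grem1* (chr2:113746164-113758646, minus strand) encodes a member of the DAN family of BMP antagonists. Its levels were 25.3, 12.1 and 15.7 TPM in embryonic replicates 1 to 3 and 7.74, 19.7 and 24.3 TPM in adult replicates 1 to 3. Both the lowest value and one of the highest were adult, and the stages overlapped. The means were 17.7 ± 6.80 and 17.2 ± 8.55 TPM (SD, n = 3 each), and the log2 change of -0.11 had an interval from -1.11 to 0.89 (limma adjusted p = 0.852), so changes within that interval could not be told from none with 3 samples a stage.

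The log2 ratio of *Grem1* to *Nog* set these side by side within each sample. It was 0.51, -0.80 and -0.95 in embryonic replicates 1 to 3 and 2.64, 1.62 and 2.34 in adult replicates 1 to 3. All 3 adult ratios were above all 3 embryonic ones, so *Grem1* stood above *Nog* in every adult sample but in only 1 embryonic sample. The means differed by 2.61 on the log2 scale. An exact two-sided permutation test gave p = 0.1, which is the smallest that 3 samples against 3 allow (adjusted p = 0.15 over the 3 ratios compared among antagonists).

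Chordin and its relatives changed in opposite directions. Chordin carries cysteine-rich repeats that hold BMPs, CHRDL1 and CHRDL2 are built from the same kind of repeat, and TWSG1 (twisted gastrulation) binds both chordin and BMPs and can act for or against signalling. *Chrd* (chr16:20733127-20742384, plus strand) was at 8.32, 8.82 and 11.4 TPM in embryonic replicates 1 to 3 and at 1.75, 2.29 and 1.08 TPM in adult replicates 1 to 3. The stages lay well apart, and the spread within each was small beside the gap. Its mean fell from 9.50 ± 1.63 to 1.71 ± 0.607 TPM (SD, n = 3 each), 5.57-fold, with a log2 change of -1.97 (SE 0.393, limma adjusted p = 0.00384).

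*Chrdl1* (chrX:143285674-143394262, minus strand) was at 9.57, 3.79 and 9.84 TPM in embryonic replicates 1 to 3 and at 0.260, 0.336 and 0.646 TPM in adult replicates 1 to 3. No adult sample reached 1 TPM, while the lowest embryonic sample, replicate 2, was still above all of them. The mean fell 18.7-fold, from 7.73 ± 3.42 to 0.414 ± 0.204 TPM (SD, n = 3 each), the widest ratio among the antagonists on the TPM scale. The log2 change was -2.54 (SE 0.485, limma adjusted p = 0.00309) and became -3.88 with a pseudocount of 0.1 in place of 1. *Chrdl1* passed the filter on low values only through the embryonic samples, so its call is no support for a change. The ratio of means divides by an adult mean under 1 TPM.

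*Chrdl2* (chr7:100006172-100034728, plus strand) went the other way. It was at 0.882, 2.56 and 5.72 TPM in embryonic replicates 1 to 3 and at 21.1, 13.0 and 11.1 TPM in adult replicates 1 to 3. Each adult sample exceeded each embryonic sample, although the embryonic samples were widely spread. The mean rose 4.93-fold from 3.05 ± 2.46 to 15.0 ± 5.31 TPM (SD, n = 3 each), with a log2 change of 2.12 (SE 0.516, 95% interval 0.95 to 3.29, limma adjusted p = 0.00974), and it was not called with no filter on low genes (limma adjusted p = 0.0703). Without embryonic replicate 3 the ratio of means was 8.73-fold, and without embryonic replicate 1 it was 3.63-fold. The log2 change lay between 1.66 and 2.58 when each sample was left out in turn.

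The log2 ratio of *Chrdl1* to *Chrdl2* was 2.49, 0.43 and 0.69 in embryonic replicates 1 to 3 and -4.13, -3.39 and -2.88 in adult replicates 1 to 3. *Chrdl1* was thus the higher of the pair in every embryonic sample and the lower in every adult sample. The mean ratio went from 1.20 ± 1.12 to -3.47 ± 0.63 (SD, n = 3 each), a difference of -4.67 (exact two-sided permutation test, p = 0.1, adjusted p = 0.15). This difference rests in part on *Chrdl1*, which was under 1 TPM in every adult sample and passed the filter only through the embryonic samples.

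**Figure D3:**
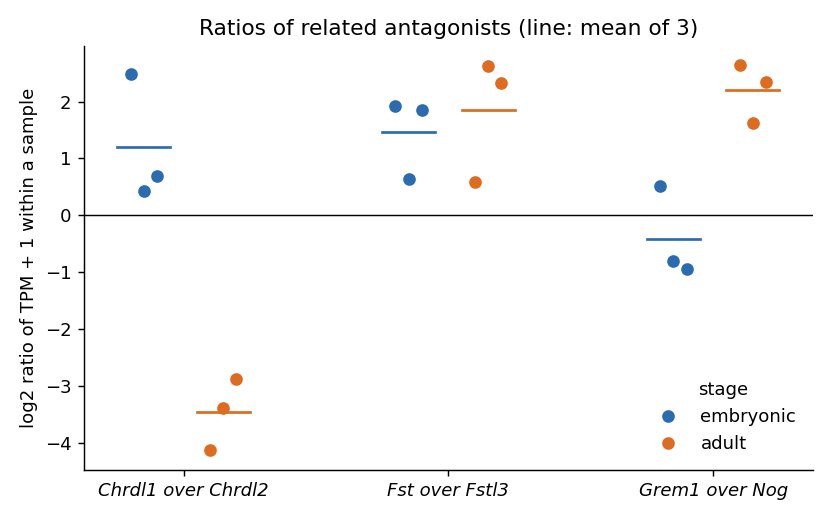
Log2 ratios between antagonists within each sample, computed from TPM + 1, with 1 point per sample and a bar at the mean of each stage. The *Chrdl1* to *Chrdl2* ratio is above 0 in the 3 embryonic and below 0 in the 3 adult samples, and the *Fst* to *Fstl3* ratio overlaps.

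*Twsg1* (chr17:65921972-65951226, minus strand) was at 115, 115 and 125 TPM in embryonic replicates 1 to 3 and at 142, 201 and 197 TPM in adult replicates 1 to 3. The embryonic samples were nearly level, and all adult samples were above them. The mean rose 1.51-fold from 119 ± 5.66 to 180 ± 32.8 TPM (SD, n = 3 each), with a log2 change of 0.58 (SE 0.160, limma adjusted p = 0.0174), or 0.42 above the median of all genes. The call was lost when any 1 of 4 samples was left out, with a limma adjusted p of 0.0603 without embryonic replicate 1, 0.0583 without embryonic replicate 2, 0.0547 without adult replicate 2 and 0.0507 without adult replicate 3.

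Follistatin and its relatives share a cysteine-rich follistatin domain, and they included the gene with the highest embryonic level of the group. *Fstl1* (chr16:37776873-37836514, plus strand) encodes a secreted glycoprotein made by many mesenchymal cells. Its levels were 2049, 1854 and 2020 TPM in embryonic replicates 1 to 3 and 114, 96.6 and 321 TPM in adult replicates 1 to 3. The embryonic samples were close together, above at least 99.5% of the genes tested, and the adult samples were all far lower, with adult replicate 3 the highest of them. The mean fell 11.1-fold from 1974 ± 105 to 177 ± 125 TPM (SD, n = 3 each), with a log2 change of -3.69 (SE 0.380, 95% interval -4.55 to -2.82, limma adjusted p = 0.000116). Leaving out any 1 sample kept the log2 change between -4.22 and -3.36. The ratio of means was 18.8-fold without adult replicate 3 and 9.08-fold without adult replicate 2.

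Markers of other cell types also differed between the stages. Of 8 tendon and fibroblast markers, 5 were lower in the adult samples, none was higher and 3 (*Mkx*, *Pdgfra* and *Thy1*) were not called. The summed level of the 8 markers went from 10131 to 11775 TPM in the embryonic samples to 602 to 1335 TPM in the adult samples. Among them *Col1a1* was at 5555, 4862 and 5971 TPM before birth and at 170, 603 and 637 TPM in the adult, and *Scx*, a tendon transcription factor, was at 0 in 2 adult samples. Of 4 superficial zone and synovial lining markers, 3 were higher and 1 was lower in the adult samples. Their sum went from 464 to 504 TPM to 27114 to 32314 TPM, and *Prg4* alone from 123 to 194 TPM to 23818 to 26392 TPM. The part of these cell types in the change of *Fstl1* or of the other antagonists was not tested. In samples of many cells, fewer cells of a type and less RNA per cell cannot be told apart.

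*Fst* (chr13:114452290-114458951, minus strand), which encodes follistatin, was at 40.3, 24.0 and 50.3 TPM in embryonic replicates 1 to 3 and at 27.8, 18.3 and 41.4 TPM in adult replicates 1 to 3. The stages overlapped over most of their range. The means were 38.2 ± 13.3 and 29.2 ± 11.6 TPM (SD, n = 3 each), with a log2 change of -0.39 (95% interval -1.19 to 0.41, limma adjusted p = 0.390). *Inhba*, the subunit of activin A, which follistatin binds, was not called either (limma adjusted p = 0.0964), and *Fst* was 8.55% to 17.7% of the TPM of *Inhba* before birth and 8.80% to 15.9% in the adult. The comparison with *Inhba* was chosen for its role as the ligand and with its values already seen.

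*Fstl3* (chr10:79777272-79782630, plus strand), which encodes a smaller activin-binding relative, was at 9.95, 15.1 and 13.2 TPM in embryonic replicates 1 to 3 and at 18.1, 2.15 and 7.44 TPM in adult replicates 1 to 3. The adult samples spread across the whole embryonic range, from the lowest to the highest value of the 6. The means were 12.8 ± 2.63 and 9.24 ± 8.14 TPM (SD, n = 3 each), and the log2 change of -0.77 (95% interval -2.12 to 0.58, limma adjusted p = 0.318) moved to -1.40 without adult replicate 1 and to -0.10 without adult replicate 2. Of its annotated exon bases 47.3% overlap *Prss57* on the opposite strand, and no source used here says that reads were counted by strand. *Prss57* was at 0 in 5 samples and at 1.66 TPM in adult replicate 2. Smaller overlaps of this kind were 3.8% of the exon bases of *Chrd*, with *Thpo* (at most 2.12 TPM), and 2.5% of those of *Fst*.

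The log2 ratio of *Fst* to *Fstl3* was 1.92, 0.63 and 1.85 in embryonic replicates 1 to 3 and 0.59, 2.62 and 2.33 in adult replicates 1 to 3. *Fst* was the higher gene in all 6, and the stages overlapped, with a difference of 0.38 (exact two-sided permutation test, p = 0.6, adjusted p = 0.6).

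The order of the antagonists by level differed between the stages. In the embryonic samples *Fstl1* (mean 1974 TPM) was followed by *Twsg1* (119), *Fst* (38.2), *Nog* (23.5), *Grem1* (17.7), *Fstl3* (12.8), *Chrd* (9.50), *Chrdl1* (7.73) and *Chrdl2* (3.05). Only *Fstl1* and *Twsg1*, and *Twsg1* and *Fst*, were neighbours whose samples did not overlap. In the adult samples *Twsg1* (180) and *Fstl1* (177) overlapped at the top, above *Fst* (29.2), *Grem1* (17.2), *Chrdl2* (15.0), *Fstl3* (9.24), *Nog* (3.39), *Chrd* (1.71) and *Chrdl1* (0.414). There, neighbours that did not overlap were *Fstl1* and *Fst*, and *Chrd* and *Chrdl1*.

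Summed over the 9 genes, antagonist transcripts made up 2276, 2058 and 2283 TPM in embryonic replicates 1 to 3 and 333, 359 and 608 TPM in adult replicates 1 to 3. The sum counts transcripts and is not a measure of how much ligand is held. The gap between the stages lay in 1 gene, since without *Fstl1* the sums were 227, 204 and 263 TPM in the embryonic and 219, 262 and 287 TPM in the adult samples, which overlapped. *Fstl1* was 88.5% to 90.1% of the sum before birth and 26.9% to 52.8% in the adult. Of the sum without *Fstl1*, *Twsg1* took 47.7% to 56.7% in the embryonic and 64.8% to 76.5% in the adult samples, and *Nog* took 7.68% to 11.9% and 0.184% to 2.19%. The 18 BMP and GDF ligand genes summed to 548 to 573 TPM in the embryonic and 476 to 685 TPM in the adult samples, which also overlapped.

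**Figure D4:**
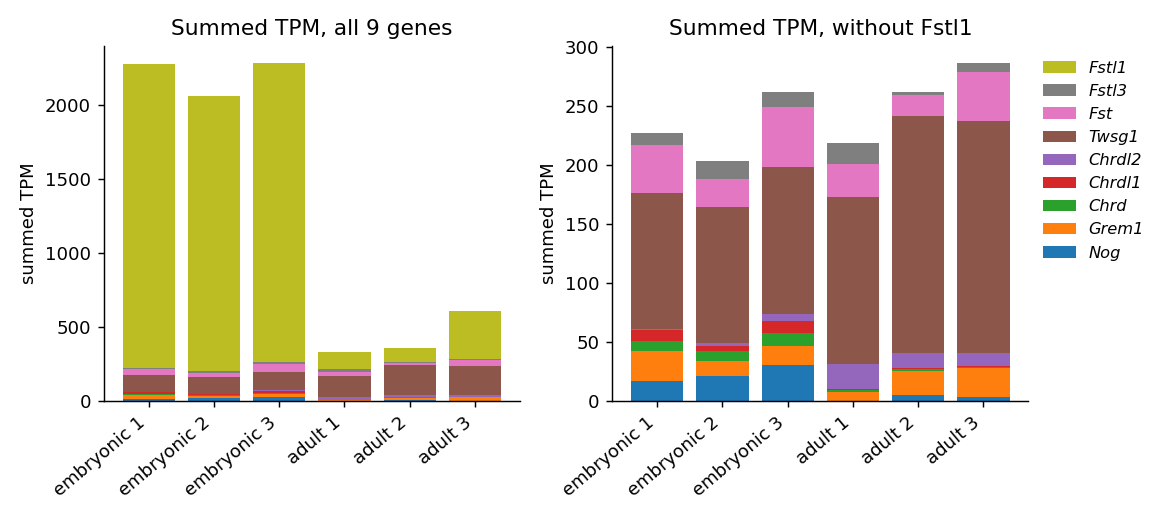
Summed TPM of the antagonists in each sample, stacked by gene from 0, shown with and without *Fstl1*. With *Fstl1* the embryonic sums are 2058 to 2283 and the adult sums 333 to 608, and without it the stages overlap.

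The remaining genes of the pathway were read from lists of 73 genes, of which 57 could be tested, 18 were lower, 11 were higher and 28 were not called. The 29 called were 50.9% of those tested, near the 45.3% of all genes tested. Of the 18 lower, 5 (*Sostdc1*, *Kcp*, *Vwc2*, *Wfikkn2* and *Bmp3*) passed the filter on low values only through the embryonic samples, so their calls are no support for a change. Among 16 other antagonists and relatives, 10 were tested. Of these, 5 were lower (*Sostdc1*, *Kcp*, *Bmper*, *Vwc2* and *Wfikkn2*) and 2 were higher (*Nbl1* and *Crim1*). Their median change was -0.71 beside 0.16 over all genes tested, but 4 of the 10 passed the filter only through the embryonic samples. The sum over the 16, however, went from 155 to 187 TPM before birth to 365 to 504 TPM in the adult. *Nbl1* was at 75.8 to 99.4 TPM against 244 to 394 TPM, and *Crim1* at 38.3 to 41.6 TPM against 75.9 to 105 TPM. *Sostdc1*, which holds BMPs and also acts on WNT signalling, was at 4.75, 8.44 and 3.75 TPM before birth and listed at 0 in all adult samples. No fold is given for it, since its adult mean was 0 TPM. Over all genes 6 values of 0 stood beside 2 samples of the same stage with at least 20 TPM, a pattern that *Sostdc1* did not have. *Kcp*, a chordin-like protein known to enhance BMP signalling, was at 15.4, 17.0 and 7.98 TPM against 0.0865, 0.797 and 0 TPM. *Bmp1*, a tolloid proteinase that cleaves chordin and frees its ligand, fell as *Chrd* did. It went from 103, 87.5 and 91.3 TPM to 25.1, 25.9 and 33.1 TPM (log2 change -1.71, limma adjusted p = 0.000114). The other of 2 tolloid proteinases tested, *Tll1*, was not called but lay higher in every adult sample. It was at 7.53, 5.23 and 4.89 TPM against 10.6, 11.9 and 10.7 TPM (log2 change 0.83, limma adjusted p = 0.0669).

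Of 12 tested ligand genes, 6 were lower (*Bmp3*, *Bmp4*, *Bmp7*, *Gdf5*, *Gdf10* and *Gdf11*) and 3 (*Bmp2*, *Bmp5* and *Gdf15*) were higher in the adult samples, where 21.4% of all genes tested were lower and 23.9% higher. *Bmp4*, which noggin and chordin hold, was at 148, 131 and 121 TPM in embryonic replicates 1 to 3 and at 15.7, 17.4 and 15.3 TPM in adult replicates 1 to 3 (log2 change -2.97, limma adjusted p = 4.23e-06). *Bmp3*, an atypical BMP that acts against the others, was at 12.9, 10.8 and 19.7 TPM against 0.154, 2.00 and 0.140 TPM, and it too passed the filter only through the embryonic samples. *Nog* and *Bmp4* were thus both lower, while *Bmp2*, another noggin ligand, was at 104 to 119 TPM in the embryonic and 131 to 183 TPM in the adult samples. Neither of the 2 activin subunits tested was called by limma, and 0 of them had an unadjusted p under 0.05.

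Of 14 tested receptors and co-receptors, 3 were lower (*Bmpr1a*, *Bmpr2* and *Acvrl1*), 1 was higher and 10 were not called. The 4 called were 28.6% of those tested, beside 45.3% of all genes tested. The higher one was *Tgfbr3*, the co-receptor betaglycan, at 84.4, 59.4 and 74.7 TPM against 269, 393 and 234 TPM (log2 change 2.00, limma adjusted p = 0.000137). *Acvrl1*, the type I receptor ALK1, was at 12.3, 7.64 and 15.2 TPM against 2.59, 0.945 and 0 TPM (log2 change -2.68, limma adjusted p = 0.00419). Among 6 Smads that carry the signal, only *Smad1* was called, at 90.0, 71.6 and 91.8 TPM against 23.6, 23.3 and 15.8 TPM (log2 change -1.98, limma adjusted p = 0.000152).

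Genes that BMP signalling is known to switch on were read as the far end of the pathway. Of 11, 5 were higher (*Id4*, *Smad6*, *Atoh8*, *Msx1* and *Dlx5*), 2 were lower (*Smad7* and *Hey1*) and 4 were not called, with a median change of 0.84 beside 0.16 over all genes tested. The share called was 63.6%, beside 45.3% of all genes tested, of which 23.9% were higher and 21.4% lower. *Msx2*, not called, passed the filter on low values only through the adult samples. *Msx1* was at 0.952, 3.51 and 1.61 TPM in the embryonic and 35.2, 36.6 and 15.4 TPM in the adult samples (log2 change 3.31, limma adjusted p = 0.000659). *Dlx5*, also a gene of bone-forming cells, was at 8.24, 3.17 and 4.99 TPM against 43.1, 51.4 and 44.3 TPM (log2 change 2.94, limma adjusted p = 0.000181). *Id1*, *Id2* and *Id3*, the commonest readouts of BMP signalling, were not called, with *Id1* at 251 to 310 TPM in the embryonic and 167 to 339 TPM in the adult samples. Of 5 osteoblast markers, 3 were higher and 1 was lower in the adult samples (summed level 26.9 to 60.8 TPM against 284 to 432 TPM). The higher ones included *Alpl*, the gene of the phosphatase by which cells were sorted out, at 14.4 to 17.9 TPM before birth and 32.7 to 38.6 TPM in the adult. Their part in these values was not tested.

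**Figure D5:**
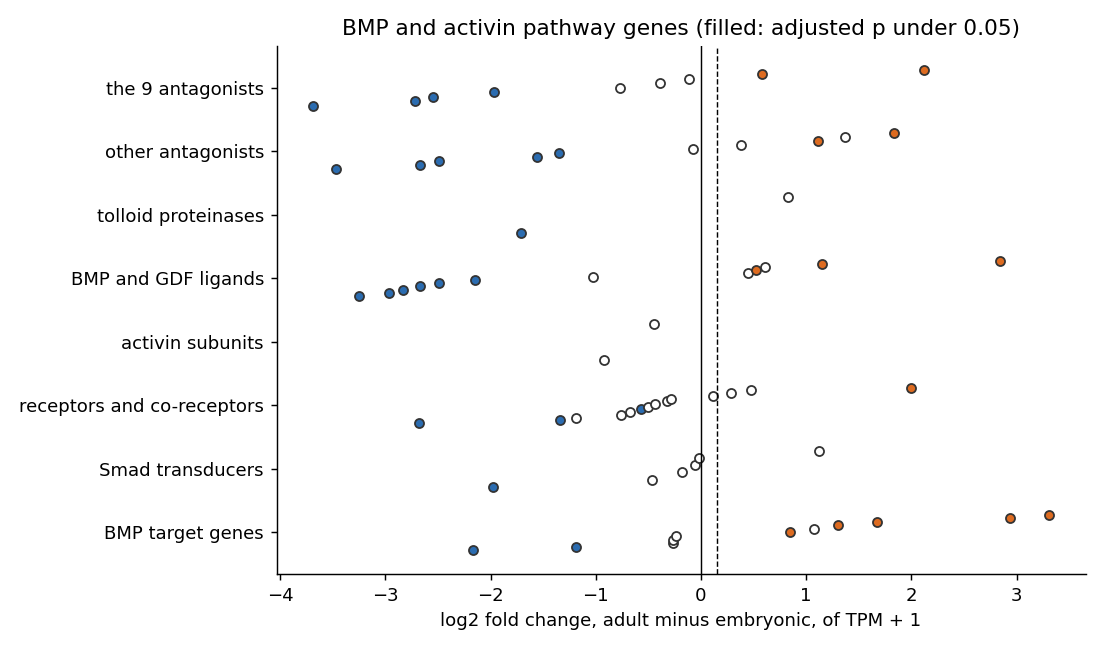
Change of each tested gene of the pathway lists, adult minus embryonic on the log2(TPM + 1) scale, grouped by role, with filled points for called genes and open points for genes not called. The ligands have the lowest median (-1.58) and the BMP target genes the highest (0.84). These medians rest in part on the filter on low values. Among the ligands *Bmp3* and *Gdf6* passed it only through the embryonic samples, and among the target genes *Msx2* only through the adult samples.

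For each antagonist the genes whose centred log2 levels over the 6 samples lay nearest were listed, as a description with no word on shared control. The closest matches were *Nfe2l2* and *Ppp2r5b* for *Twsg1* (Euclidean distances 0.0955 and 0.117) and *Hgf* and *Lysmd3* for *Chrd* (0.108 and 0.160). *Fstl1* lay nearest to *Col4a5* and *Ccna2* (0.311 and 0.358), *Chrdl1* to *Srsf12* and *Pcdh20* (0.308 and 0.315) and *Nog* to *Maf* and *Mcf2l* (0.380 and 0.542). *Grem1* lay nearest to *Nudt11* and *Zfp239* (0.229 and 0.315), *Fst* to *Zfp608* (0.294), *Fstl3* to *Tmem41a* and *C1qtnf2* (0.220 and 0.631) and *Chrdl2* to *Bend6* and *Tbc1d13* (0.488 and 0.659). *Nudt11* and *Zfp239* had stage means of 1.19 to 1.67 TPM, near the filter on low values. *Hgf*, *Srsf12* and *Pcdh20* passed that filter only through the embryonic samples, with adult means of 0.772, 0 and 0 TPM. None of the neighbours named was itself an antagonist of the 9.

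The other marker lists gave the makeup of the sorted cells. All 3 tested hypertrophic markers were higher (575 to 795 TPM against 3325 to 5697 TPM). Most of that sum was *Spp1*, at 553 to 714 TPM against 2368 to 4376 TPM. *Col10a1* was at 11.4 to 72.4 TPM against 814 to 1096 TPM, and *Mmp13* at 4.90 to 14.4 TPM against 143 to 226 TPM. *Ihh*, of the same list and too low to test, was at 0.597 to 2.23 TPM before birth and at 0 in the adult samples. Of 3 joint interzone markers, 2 were lower (85.0 to 103 TPM against 25.1 to 34.1 TPM). Muscle markers summed to 47.2 to 64.9 TPM and 1.24 to 8.83 TPM, with 1 lower and 3 not called of 4 tested. Most of the embryonic muscle sum was *Des*, at 46.0 to 50.6 TPM. Endothelial markers summed to 10.9 to 33.3 TPM and 3.79 to 13.0 TPM, with 1 lower and 2 not called of 3 tested. *Tek* went from 9.21 to 19.0 TPM to 0.121 to 0.889 TPM, whereas *Pecam1* was at 1.29 to 1.75 TPM against 2.79 to 6.87 TPM. Leukocyte markers summed to 5.71 to 14.7 TPM and 20.4 to 84.7 TPM, with 2 higher (*Cd68* and *Itgam*) and 1 (*Lyz2*) not called of 3 tested. *Itgam* and *Lyz2* passed the filter on low values only through the adult samples. They were widely spread there, with *Itgam* at 18.2, 1.37 and 12.1 TPM and *Lyz2* at 30.7, 0.706 and 8.14 TPM in adult replicates 1 to 3. Erythroid markers summed to 0 to 104 TPM and 1.41 to 33.8 TPM, and epidermal markers to at most 2.44 TPM with *Krt5* and *Krt14* at 0. The part of these lists in the values of the antagonists was not tested.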

How the data were processed

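RNA-seq was done on 3 embryonic and 3 adult samples of sorted mouse knee chondrocytes, which the labels call biological replicates. Where nothing says that they came from separate animals, a p-value measures only the spread between these samples. The authors mapped single-end reads to GRCm38 and estimated levels with RSEM, and the deposited values are log2(TPM + 1) for each gene. Which RSEM version was used is not given in the sources used here. The labels and the methods name different library kits. TPM keeps no read depth, so precision rests on the spread between 3 samples. The study's test, EBSeq, needs counts and was not used here.

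Values were fitted by stage with limma 3.58.1 (eBayes with trend, R 4.3.3) on all 13125 genes that averaged 1 TPM or more (pseudocount 1), with Benjamini-Hochberg adjustment at 0.05, after a check on simulated data. For ratios, stages were set against each other with a two-sided exact permutation test. Symbols and positions came from GENCODE M21 of GRCm38 and promoter windows from RefSeq on GRCm38.p6. The antagonists, pathway lists and marker lists were chosen with earlier results of these data known, and the marker lists overlap the lists of the pathway in *Gdf5*. Genes named from the pathway lists are the 2 with the largest change among those called in a list and any that is the only one called in its direction, and the other pathway genes were named after their values were seen. For each antagonist the 2 genes at the smallest distance were named, apart from a result that is not reported here. Alternatives were a pseudocount of 0.1, a minimum of 5 TPM or none, quantile normalization, scaling by median of ratios or by the total less the 20 highest genes, robust eBayes or eBayes with no trend, a replicate block, an adjusted p of 0.01 and each sample left out in turn.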

Additional observations from a re-analysis of the deposited data

How the results depend on the processing

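Of 219 recomputed values for the antagonists, their ratios and the counts of calls, 205 kept their direction and their side of the threshold (counts within 1.5 times), 8 lost the call, 4 changed sign and 2 counts moved further. With no filter on low values, 3 antagonists were called (3 lower, 0 higher) in place of 6, since *Nog* (log2 change -2.72, limma adjusted p = 0.0582), *Chrdl2* (2.12, adjusted p = 0.0703) and *Twsg1* (0.58, adjusted p = 0.0650) then missed the threshold. Without the trend in eBayes *Twsg1* missed it too (0.58, adjusted p = 0.0635). At an adjusted p of 0.01, 3718 genes were called in place of 5949.

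Leaving out each sample in turn gave 5 to 6 called antagonists and 4603 to 5550 called genes. The change of *Grem1*, never called, ran from -0.42 to 0.35 and was positive without embryonic replicate 1 (0.16) and without adult replicate 1 (0.35). That of *Twsg1* ran from 0.49 to 0.74, and the difference in the *Fst* to *Fstl3* ratio from -0.037 (without embryonic replicate 2) to 1.01, with -0.0066 without adult replicate 2. The cause was not tested. A minimum of 5 TPM left *Chrdl1* untested. The replicate numbers did not pair the samples (correlations of same-numbered samples -0.00884, -0.0169 and -0.0223). With the replicate block 6 antagonists were called (4 lower, 2 higher) and 5430 genes in all.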
